A study of Cubamyces sp. BRFM 1775 with 14 samples.

Results

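In the wood-decaying fungus Leiotrametes sp. BRFM1775, 91 of the 1052 genes in the deposited expression table had a level on cellulose at least 1 log2 unit below the level on maltose. These 91 genes, called members below, were chosen by the deposited maltose and cellulose values alone, and the values on wheat straw, pine and aspen took no part in the choice. The genes carry protein numbers of the MycoCosm genome portal, which the table does not pair with names. No family, pathway or sequence is therefore attached to any of them, and no marker gene could be used to check the labelled mycelium.

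All cultures were mycelium of the same strain, which GEO lists under the genus Cubamyces, shaken at 30 °C for 3 days in 100 ml of the same mineral medium with yeast extract. The control medium held maltose at 20 g/l. The cellulose cultures held 2.5 g/l maltose with 15 g/l Avicel, a microcrystalline cellulose, and the cultures on wheat straw (straw below) and pine held 2.5 g/l maltose with 15 g/l of that plant material. Aspen was likewise given at 15 g/l, but its maltose concentration is misprinted in the labels. There were 2 labelled samples on straw and 3 on each of the other substrates. Since the media with cellulose, straw and pine differed from the control in both maltose and added solid, the effect of less maltose and the effect of the solid on a difference from maltose cannot be told apart.

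Maltose is a soluble disaccharide of glucose that fungi hydrolyse and take up readily. Cellulose is an insoluble glucose polymer that is cut by secreted cellobiohydrolases, endoglucanases and lytic polysaccharide monooxygenases before sugars can enter the cell, and straw and wood add hemicellulose, pectin and lignin. In many fungi, readily used sugars repress genes for secreted plant cell wall enzymes, and genes of sugar transport and storage also follow the sugar supply.

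The deposited value of a gene on a substrate, called its level below, is a mean over libraries of log2(normalised reads + 1), and the reads of each library could be recovered from it for most genes. The maltose, pine and aspen columns held 3 libraries each, and the cellulose and wheat straw columns 2 each, 13 in all. Which labelled cellulose sample is absent is not known. Libraries are numbered within a substrate from the lowest size factor. Reads were solved on all substrates for 72 members, against 749 of all genes. Size factors ranged from 0.4261 in maltose library 1 to 1.607 in maltose library 3. Reads differed between the libraries of a substrate by more than sampling noise, with a chi-square per degree of freedom of 12.7 to 650, a measure that grows with the number of reads. A level is relative to the RNA sequenced, so less RNA of a gene per cell and fewer hyphae of a kind that expresses it cannot be told apart.

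On maltose the members had a median level of 8.12, and on cellulose 6.31. The differences, cellulose minus maltose, ran from −3.07 up to the limit of −1, with a median of −1.37, and 18 members were lower by at least 2. Over all 1052 genes the median difference was 0.10. The members were 8.65% of the table by this choice, which fixes the direction, so no test is attached to it. Gene 1280292 stood just inside the limit at −1.0001, with levels of 8.85 on maltose and 7.85 on cellulose, and gene 1329084 next to it at −1.0047. Genes 1317392 and 1324528 stood just outside at −0.9997 and −0.9994.

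The largest difference belonged to gene 1272555, with 83, 156 and 234 reads in the maltose libraries and 26 and 17 in the cellulose libraries. Its levels were 7.61, 7.29 and 7.20 on maltose against 4.65 and 3.95 on cellulose, a mean difference of −3.07. Gene 1325741 came second among members with separate libraries, at 5.27, 4.81 and 5.33 on maltose against 2.91 and 1.44 on cellulose. With 16, 27 and 63 reads on maltose and 7 and 2 on cellulose, its difference rests on few reads. Both genes had every maltose library above every cellulose library. The same held for 69 of the 78 members solved on both substrates, against 22.2% of all genes solved on both. The choice rests on these same values, so nothing is read from that share.

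With each level turned back from log2 before summing, the members held 17.3% of the summed values of the table on maltose and 4.77% on cellulose. On wheat straw they held 10.2%, on pine 7.03% and on aspen 7.15%. Such a share also depends on the other genes of the table, whose median level was 8.35 on maltose and 9.17 on cellulose. Gene 1375412, singled out after its values were seen, alone held 9.9% of the table on maltose and 3.12% on cellulose. Without it, the other 90 members held 8.24% of the rest of the table on maltose and 1.7% on cellulose. On cellulose, 15 members had at most 10 reads in every library, against 4.66% of all genes, and differences between such counts are imprecise and are understated by the added 1.

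The cellulose libraries gave unlike pictures of the members. In 48 members both libraries lay at least 1 below the maltose mean, in 29 only library 1 did, and in 14 only library 2 did. In 31 members the libraries lay at least 1 apart, as they did in 199 of all 1052 genes. Gene 1326449 had a level of 6.35 in library 1 and 9.22 in library 2, against 9.43, 8.86 and 8.74 in the maltose libraries, so that library 1 lay far below maltose and library 2 within its range. The median standard deviation of members was 0.49 on cellulose, against 0.27 on maltose, 0.30 on straw, 0.44 on pine and 0.26 on aspen. The members were chosen with their cellulose values. Over all genes the medians were 0.31 on pine, 0.29 on cellulose, 0.19 on maltose, 0.17 on straw and 0.23 on aspen. Cellulose and straw had 2 libraries and the other substrates 3. At the same spread, the median standard deviation of 2 values runs lower than that of 3. The substrates are therefore not ranked by these medians. With cellulose library 1 left out, the same limit chose 87 genes, of which 62 were members. With library 2 left out it chose 115 genes, of which 77 were members.

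**Figure D1:**
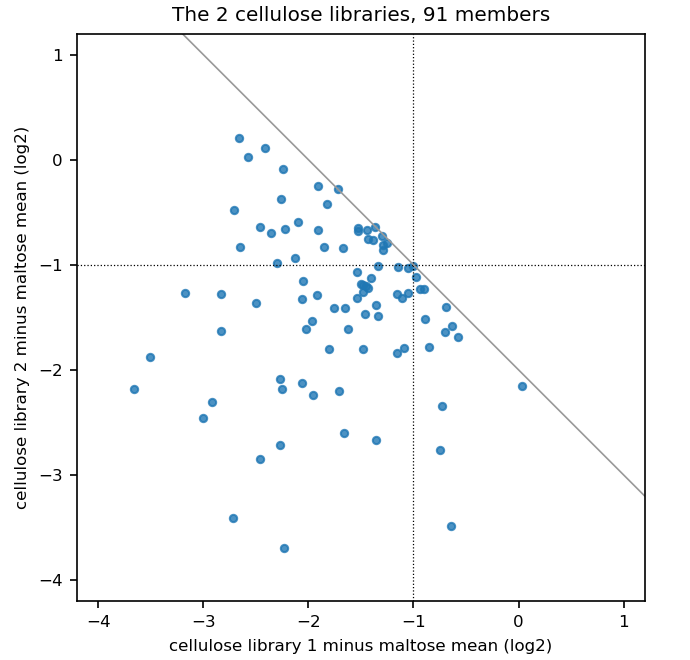
Each point is 1 of the 91 members, with its level in cellulose library 1 minus the maltose mean on the x axis and the same for library 2 on the y axis, both in log2 units. Dotted lines mark −1 and the grey line marks the limit on the mean of both libraries; 48 points lie at or below −1 on both axes and 31 points have libraries at least 1 apart.

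The lower level on cellulose was shared with the plant materials by part of the members, absent in others and reversed in the rest. Against maltose, 26 members were lower by at least 1 on straw, pine and aspen alike, a class that held 7.51% of all genes. A further 5 were lower on both woods but not on straw (2.95% of all genes), 5 on straw only (1.62%) and 13 on 1 wood with or without wheat straw (7.6%). In 14 members all 3 plant materials lay within 1 of maltose (34.6% of all genes), and 27 were higher by at least 1 on at least 1 plant material and lower on none (45%). The remaining member, gene 1327319, was lower by at least 1 on straw and higher by at least 1 on aspen (0.76% of all genes). The maltose libraries enter both the choice of the members and these differences, so the classes are a description and no evidence of their own direction. Their sizes moved with the scaling: after centring each library on its median 43 members were lower on all 3 and 14 higher on at least 1, and after quantile normalisation 40 and 16. With 32 added before the log, 32 members lay within 1 on all 3.

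**Figure D2:**
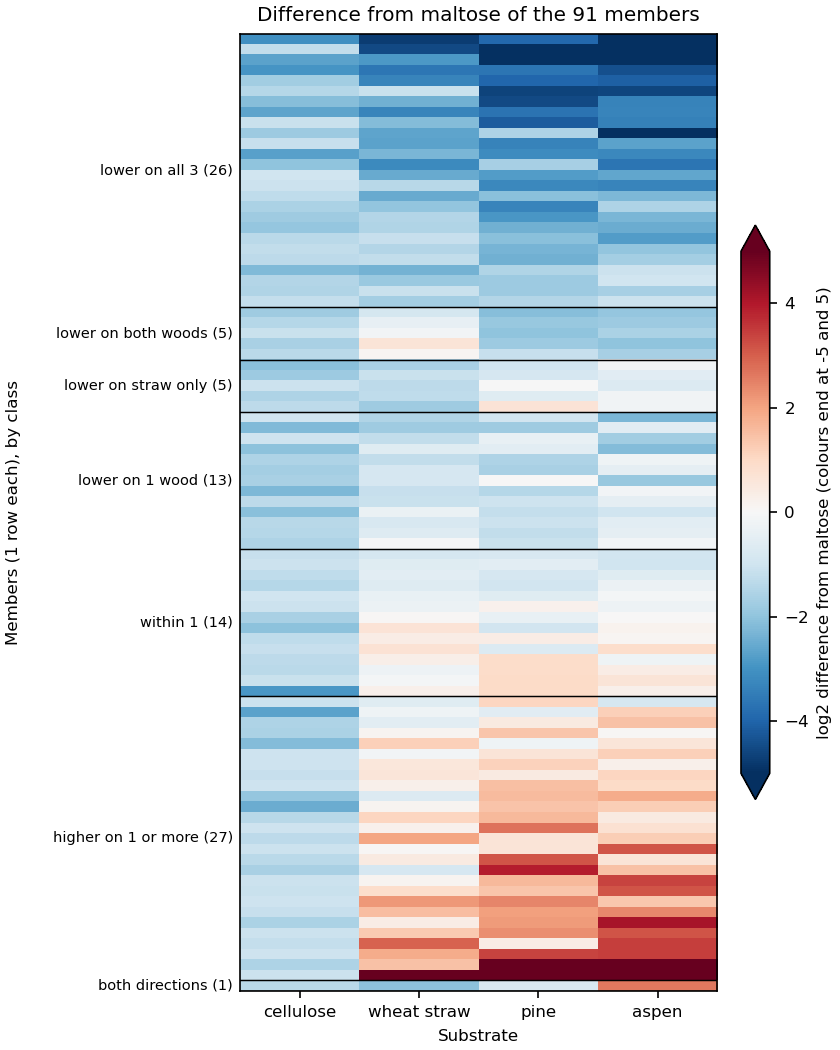
Each line is 1 of the 91 members, ordered by class, and the colour gives its level on cellulose, wheat straw, pine or aspen minus its level on maltose in log2 units (blue lower, red higher, colours ending at −5 and 5). The cellulose column is blue throughout by the choice of the genes, while the other columns run from blue in the 26 members lower on all 3 plant materials to red in the 27 members higher on at least 1.

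Across all genes, differences with an adjusted p below 0.05 and a size of at least 1 were called. Wheat straw was lower than maltose in 32 members and higher in 8. Of all genes, 10.1% were called lower and 25.3% higher. Fewer members were called lower on straw with straw library 2 left out, which leaves 1 straw library. Pine was lower in 38 members and higher in 18, against 13.6% and 37.6% of all genes. Aspen was lower in 34 and higher in 19, against 13.7% and 32.7%. The medians over members were −0.66 for straw minus maltose, −0.83 for pine and −0.46 for aspen, where those over all genes were 0.19, 0.56 and 0.30. All 3 plant materials lay below maltose, by any amount, in 51 members (25.4% of all genes) and above it in 22 (46.9%). Since maltose is shared with the choice, no p-value is attached to these counts. The balance also moved with the scaling: after centring every library on its median over the 1052 genes, higher and lower calls numbered 3 and 56 on straw, 10 and 57 on pine and 12 and 48 on aspen. After quantile normalisation they numbered 5 and 46, 11 and 50, and 12 and 47.

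Of the 26 members lower on every substrate than on maltose, the median difference was −1.55 on cellulose, −2.32 on straw, −3.02 on pine and −3.00 on aspen. Gene 1272555 had the most negative difference on straw and on aspen, though not on pine, where it was −3.94. It had 6 and 8 reads on straw, 20, 2 and 11 on pine, and 0, 3 and 1 on aspen, so that its differences of −4.73 on straw and −6.48 on aspen rest on few reads. With 32 rather than 1 added before the log they were −2.40 and −2.57. Gene 1326449 fell on all plant materials, with differences of −4.53 on straw, −5.32 on pine and −5.16 on aspen. Its reads were 293, 464 and 685 on maltose, 26 and 31 on straw, 8, 12 and 10 on pine, and 10, 26 and 12 on aspen. All 8 plant libraries thus lay far below every maltose library, while its cellulose libraries, with 87 and 697 reads, did not both do so.

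The pair of genes with the highest mean level in this class, among those solved in all libraries, had more reads. Gene 1329084 had levels of 10.56 ± 0.21 on maltose (SD, n = 3), 9.55 ± 0.52 on cellulose (n = 2), 8.04 ± 0.25 on straw (n = 2), 7.77 ± 0.51 on pine (n = 3) and 7.95 ± 0.19 on aspen (n = 3). Gene 1345638 had 10.39 ± 0.16 on maltose, 8.63 ± 0.31 on cellulose, 8.93 ± 0.09 on straw, 7.49 ± 0.21 on pine and 8.08 ± 0.02 on aspen, with the same numbers of libraries. Neither gene had a cellulose or plant library that reached a maltose library. Gene 1345638 was lower on pine than on straw, with a difference of −1.44 and a standard error of 0.18 (limma, adjusted p = 0.00026).

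The classes that parted straw from wood were small. In gene 1291649, lower on both woods, the maltose libraries stood at 10.74, 10.36 and 10.21 and the wheat straw libraries at 10.65 and 10.43, within the maltose range. The pine libraries stood at 9.54, 9.09 and 9.27 and the aspen libraries at 8.75, 9.03 and 8.55, close to the cellulose mean of 9.11 ± 0.15 (SD, n = 2). Gene 1331698 belonged to the same class at a low level, with 15, 32 and 139 reads on maltose and 29 and 7 on cellulose. It had 39 and 28 reads on straw, 7, 8 and 10 on pine and 12, 7 and 22 on aspen. Only cellulose library 2 lay at least 1 below the maltose mean of this gene. Gene 1375412, whose level was the highest of the table on maltose (18.33) and on straw (18.18), was also in this class, and held rank 2 on cellulose (17.19), rank 12 on pine (16.31) and rank 3 on aspen (16.75). Its reads were solved on cellulose only, at 237853 and 119132.

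Among the 5 members lower on straw only, gene 1327611 had 8.27, 8.32 and 7.78 on maltose, 6.16 and 5.88 on cellulose, 6.52 and 6.51 on straw, 6.83, 7.11 and 7.47 on pine and 7.79, 8.37 and 7.72 on aspen. Aspen overlapped maltose in this gene, while the wheat straw and the pine libraries lay below all of them. Pine minus maltose was −0.99, just short of the limit, and pine and straw were not called different (0.62, SE 0.26, limma, adjusted p = 0.0825). Gene 361135 stood at 8.63 ± 0.40 on maltose, 7.31 ± 0.06 on straw and 8.60 ± 0.57 on pine. Its aspen libraries, at 7.65, 7.96 and 8.17, also lay below the lowest maltose library at 8.22, but their mean of 7.93 was within 1 of maltose. Of the members lower on 1 wood, genes 1375626 and 1324419 were lower on aspen and wheat straw, at 6.82 ± 0.09 and 6.10 ± 0.43 on aspen against 8.54 ± 0.21 and 8.41 ± 0.08 on maltose. On pine they stood at 8.17 ± 0.45 and 7.44 ± 0.92, between the other plant materials and maltose.

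In the 14 members within 1 of maltose on all plant materials, the median level was 6.95 on maltose, 5.82 on cellulose, 7.20 on straw, 7.08 on pine and 7.70 on aspen. The class is not uniform. Gene 1317339 had 11.53, 11.36 and 11.55 on maltose and lay below that range in all other libraries, at 10.14 and 10.48 on cellulose, 10.98 and 10.31 on straw, 10.71, 10.76 and 10.57 on pine and 10.49, 10.48 and 10.58 on aspen. It missed the limit narrowly on each plant material. Gene 145356 had 10.09, 9.91 and 9.82 on maltose and 10.36 and 10.12 on straw, and its cellulose libraries stood at 7.68 and 9.57. Its pine libraries, at 11.50, 10.70 and 10.37, all lay above maltose, by 0.92 in the mean, and its aspen libraries stood at 9.87, 9.34 and 9.97. Gene 1323882, named after its values were seen, had a difference of −2.92 on cellulose, with levels of 12.55 on maltose, 9.63 on cellulose, 12.82 on straw, 13.51 on pine and 12.81 on aspen. Its cellulose libraries stood at 8.88 and 10.37, and its maltose reads were not solved.

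The 27 members higher on at least 1 plant material had a median level of 8.09 on maltose and 6.31 on cellulose, against 8.78 on straw, 10.05 on pine and 9.27 on aspen. Gene 1330893 had the largest differences, with 13, 85 and 74 reads on maltose, 19 and 34 on cellulose and 11432 and 22343 on straw. It rose by 7.90 on straw and stood at 15.65 on pine and 13.89 on aspen, though its pine and aspen reads were not solved. Pine was called above straw (2.10, SE 0.47, limma, adjusted p = 0.0129), but aspen and straw were not called different (0.34, SE 0.47). Gene 1331506 rose by 3.39 on pine and 3.46 on aspen, from 7.32 ± 0.34 on maltose (SD, n = 3) to 10.71 ± 0.11 on pine and 10.78 ± 0.04 on aspen (n = 3 each). Its cellulose libraries stood at 6.02 and 6.59, below the lowest maltose library at 7.02.

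Other members of this class differed in which plant material was high. Gene 1318101 had 67, 155 and 214 reads on maltose, 51 and 56 on cellulose, 152 and 80 on straw, 3439, 1622 and 1166 on pine and 372, 453 and 526 on aspen. Its pine libraries lay above all other libraries. Gene 302323 had levels of 4.61, 5.09 and 5.33 on maltose, 7.21 and 8.71 on straw, 6.47, 4.97 and 4.72 on pine and 8.89, 7.88 and 8.60 on aspen, so that pine overlapped maltose and the other plant materials did not. Gene 1316507 was higher on all 3, at 9.34 ± 0.09 on maltose, 8.29 ± 0.34 on cellulose, 11.51 ± 0.31 on straw, 11.77 ± 0.51 on pine and 10.70 ± 0.04 on aspen. Gene 1261342 was higher on pine alone by the limit of 1, with 11.12 ± 0.26 on pine, 10.56 ± 0.58 on aspen, 9.85 ± 0.12 on straw and 9.60 ± 0.15 on maltose. Gene 1244940, singled out after its values were seen, moved from rank 276 of the table on maltose (10.48) to rank 526 on cellulose (8.93) and to ranks 11 and 9 on pine (16.40) and aspen (16.02). Its cellulose libraries stood at 8.02 and 9.84, of which only the first lay at least 1 below the maltose mean.

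**Figure D3:**
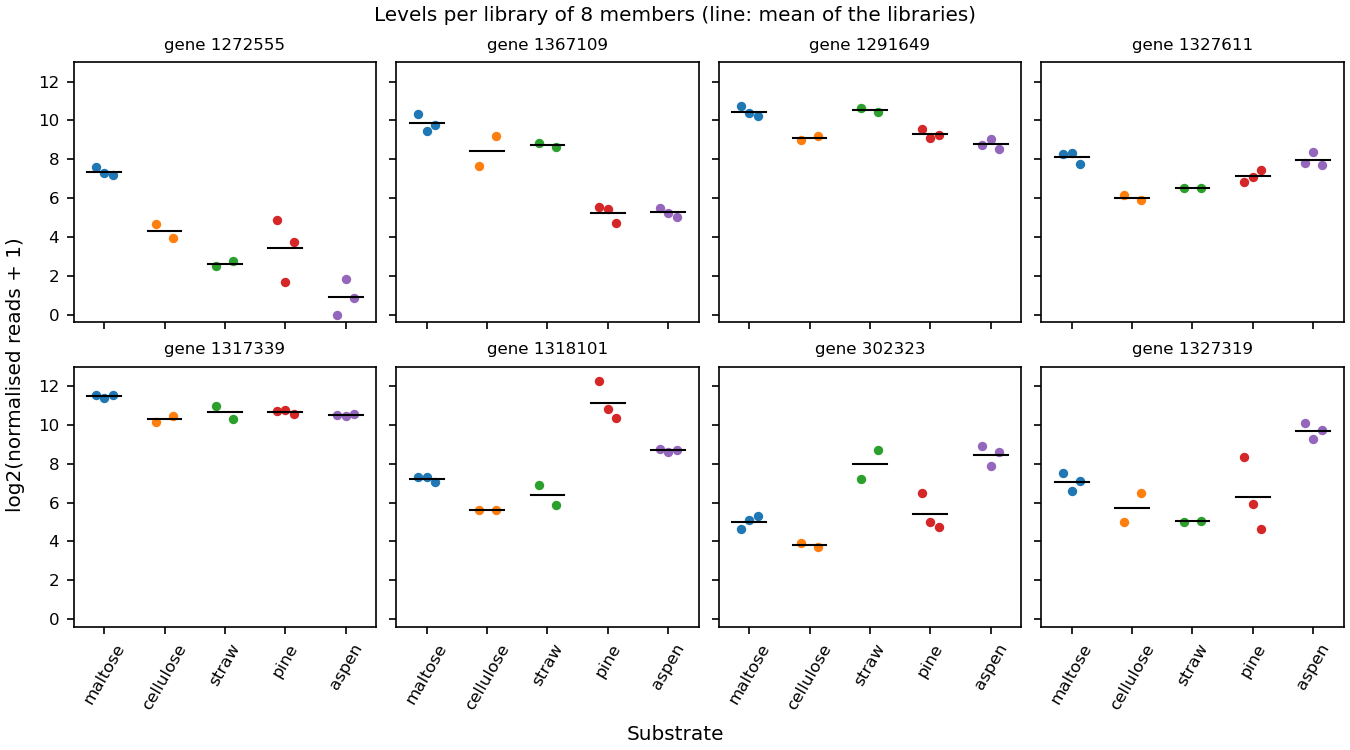
Levels, log2(normalised reads + 1), of 8 members in each library (points) on the 5 substrates, with the mean of the libraries as a line. Genes 1272555 and 1367109 have all plant libraries below all maltose libraries, gene 1291649 overlaps maltose on straw only, and gene 1318101 has its 3 pine libraries above every other library.

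Set against cellulose rather than maltose, all 3 plant materials were above cellulose in 52 members, against 36.3% of all genes, and all 3 were below it in 13, against 29.3%. The median differences from cellulose were 0.79 on straw, 0.68 on pine and 1.12 on aspen. Of all genes, 21.1% had their lowest level of the 5 substrates on cellulose. The same 52 members did, because the choice put maltose above cellulose in each of them. Since members were chosen for a low cellulose value, this too is a description. In the 26 members lower on every plant material, the median difference from cellulose was −0.38 on straw, −1.08 on pine and −1.32 on aspen.

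Differences among the plant materials use neither the maltose nor the cellulose means, which chose the members; only the spread of the fit was shared over all substrates. Nothing in the labels says whether libraries of a substrate came from separate flasks, so the p-values below reflect a spread between libraries that may be technical. Pine and wheat straw differed in 31 members, 18 higher on pine and 13 lower, where 18.6% of all genes were called higher and 7.98% lower. As shares of the members these were 19.8% and 14.3%. Aspen was higher than wheat straw in 17 members and lower in 8, or 18.7% and 8.79% of the members against 9.6% and 6.08% of all genes. Pine was higher than aspen in 15 and lower in 11, or 16.5% and 12.1% of the members against 16.4% and 6.46% of all genes. Over the genes solved on the substrate concerned, leaving out straw library 1 took the lower calls of pine against straw from 12 to 6 and the higher calls of aspen against straw from 17 to 11, and leaving out pine library 2 took the lower calls of pine against aspen from 11 to 7. With 32 added before the log, 11 members were called higher on aspen than on straw.

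At least 1 of these 3 comparisons was called in 51 members, 56% of them, against 42.9% of all genes. The members' median differences were near 0, at 0.05 for pine minus wheat straw, −0.01 for aspen minus wheat straw and −0.19 for pine minus aspen. The medians of all genes were 0.22, 0.03 and 0.11. Wheat straw was the highest of the plant materials for 30 members, pine for 29 and aspen for 32, against 26.1%, 43.8% and 30% of all genes. The members thus had no common order of the plant materials.

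**Figure D4:**
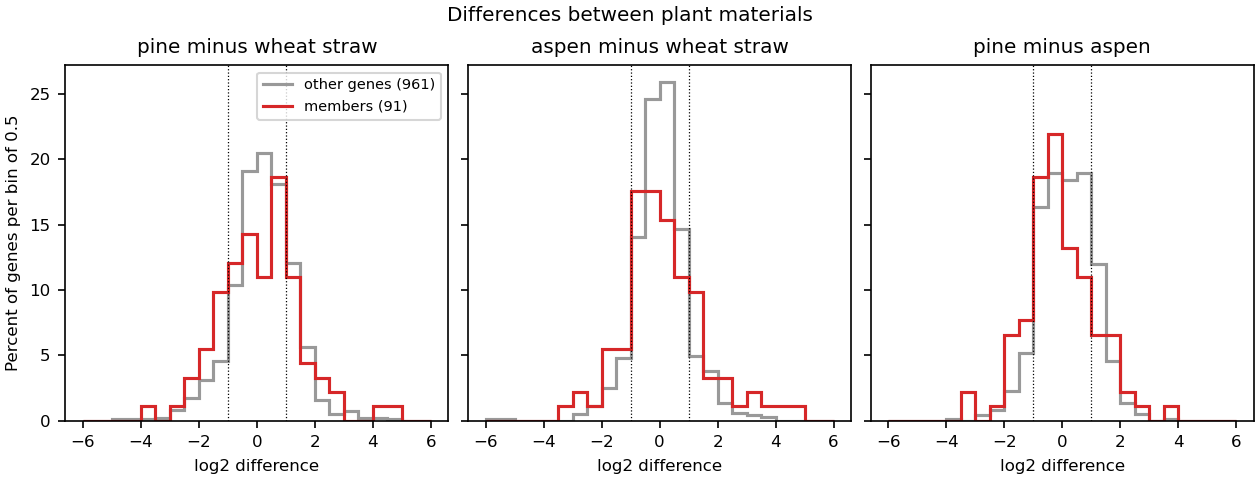
Percent of genes in bins of 0.5 of the log2 difference, for the 91 members (red) and the 961 other genes of the table (grey), with dotted lines at −1 and 1. The members' medians lie at 0.05, −0.01 and −0.19 in the 3 panels, and members reach 4.75 for pine minus wheat straw and 4.67 for aspen minus wheat straw.

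The largest difference between pine and wheat straw was that of gene 1318101, which was higher on pine by 4.75 with a standard error of 0.46 (limma, adjusted p = 6.09e-05). It was also higher on aspen than on straw by 2.29 (SE 0.46, limma, adjusted p = 0.0053) and higher on pine than on aspen by 2.46 (SE 0.41, limma, adjusted p = 0.00127). Its 3 plant materials therefore had separate levels, highest on pine. Gene 1118954 was higher on pine than on straw by 2.50 (SE 0.37, limma, adjusted p = 0.00072), with pine libraries at 12.62, 11.48 and 11.18, wheat straw libraries at 9.47 and 9.04 and aspen libraries at 9.95, 9.39 and 10.09. Gene 1331506 was higher than on straw on both woods, by 1.53 on pine and 1.61 on aspen (SE 0.25 each, limma, adjusted p = 0.00135 and 0.00126), while pine minus aspen was −0.07 with a standard error of 0.23 and was not called.

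Gene 1367109 was lower on both woods than on straw, with 588 and 559 reads on straw against 32, 38 and 23 on pine and 39, 42 and 41 on aspen. The differences were −3.52 on pine (SE 0.42, limma, adjusted p = 0.000208) and −3.50 on aspen (SE 0.42, limma, adjusted p = 0.000288). Its maltose libraries stood at 10.32, 9.47 and 9.77, above the wheat straw libraries at 8.86 and 8.65. Gene 1291649, of the class lower on both woods, gave −1.24 on pine (SE 0.21, limma, adjusted p = 0.00158) and −1.76 on aspen (SE 0.21, limma, adjusted p = 0.000288) against wheat straw. In the class lower on both woods, pine was called below wheat straw in 4 of 5 members and aspen in 3 of 5; the class was formed with the same pine, aspen and wheat straw values, so these counts follow in part from it.

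Other members differed between the woods. Gene 184793 had levels of 7.46, 8.80 and 7.73 on aspen against 4.37 and 5.11 on straw and 6.19, 6.16 and 6.39 on pine. It was higher on aspen than on straw by 3.26 (SE 0.39, limma, adjusted p = 0.000262) and lower on pine than on aspen, at −1.75 (SE 0.35, limma, adjusted p = 0.00295). Gene 1347896, one of the 10 highest of the table on maltose at 15.70, stood on aspen at 10.22, 10.02 and 10.39 and on straw at 13.65 and 12.52, a difference of −2.87 (SE 0.33, limma, adjusted p = 0.00126). Its maltose and pine reads were not solved, so its spread came from the other substrates, and its level on pine was 14.16. Gene 1331038 was higher on pine than on aspen by 1.99 (SE 0.35, limma, adjusted p = 0.00171), with 432, 321 and 349 reads against 110, 139 and 113.

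Gene 302323 was lower on pine than on aspen, at −3.07 (SE 0.50, limma, adjusted p = 0.00111), and lower than on straw, at −2.57 (SE 0.56, limma, adjusted p = 0.00493). The latter rested on the higher of its wheat straw libraries. With wheat straw library 2 left out it was −1.83 (limma, adjusted p = 0.0647), which was no longer a call. Gene 1327319 was lower on pine than on aspen, at −3.41 (SE 0.75, limma, adjusted p = 0.00498), and its pine libraries were spread from 8.32 over 5.92 to 4.66, wider than on any other substrate.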

How the data were processed

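The deposited table holds, per the file headers, 1 normalised log2 read count per substrate and gene. The submitters' processing notes name TopHat2, HTSeq and DESeq (1.5) without saying what each did. Per the labels' protocols, libraries of polyadenylated RNA were read from both ends, 150 bp each, on the Illumina HiSeq platform. The genome build is not given in the sources used here, nor is the rule by which the authors chose the 1052 deposited genes.

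Each deposited value was found to average log2(reads × scale + 1) over the libraries of a substrate. The scales of each column were searched on its lowest values, and all 60 values checked then came out as whole reads within 1e-09; with scales moved by 1%, 0 or 1 did. A gene counted as solved where a single combination of reads gave its value, which held for 797 genes on pine, 828 on aspen, 906 on maltose, 1051 on wheat straw and 1052 on cellulose. In columns of 3 libraries, values above 12 were left unsolved. In simulated columns, all solved genes (1051 with 2 libraries, 832 with 3) had the right reads. The total depth of the libraries is unknown, since the table holds part of the genes; over the solved genes they held between 247933 and 6137774 reads.

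The recovered log2 values of the 13 libraries entered 1 limma 3.58.1 fit (R 4.3.3) with a mean per substrate and a trend of the spread over levels, with Benjamini-Hochberg adjustment over all 1052 genes within each comparison. The comparisons had been designed for 1 deposited value per library, and the recovered values took their place. Where the libraries of a substrate stayed unsolved, the deposited mean stood for it and its residual degrees of freedom were taken away. On simulated reads for pine minus wheat straw over 1052 genes, 35 of 67 genes changed 2-fold, 67 of 67 changed 4-fold, 65 of 66 changed 8-fold and 3 of 852 unchanged genes were called. Besides sampling noise, the simulation gave every gene the same noise between libraries. The members' median standard deviation on pine was 0.44, against 0.31 over all genes. These rates may therefore not hold for members with a wide spread.

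Members, classes and comparisons were chosen with earlier results of these data known. Genes named are, for each comparison, up to 2 per direction with the largest called difference and non-overlapping solved libraries, and for each class up to 2 with the highest mean level among those solved in all libraries, besides the genes next to the limit; exceptions are marked. Calls of genes named for a comparison were thus likely to be kept under changed processing. Some changes also left the difference untouched: for gene 1330893, straw minus maltose was 7.90 with or without cellulose library 1. Kept calls of named genes are therefore little evidence of stability. Summaries used Python 3.11.15, NumPy 2.4.6, pandas 2.3.3 and numba 0.67.0, and figures matplotlib 3.10.9.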

Additional observations from a re-analysis of the deposited data

Results flagged for a closer look

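Gene 1327319 was the 1 member with plant materials at least 1 away from maltose in opposite directions, which is why it is listed here. Aspen minus maltose was 2.63 and wheat straw minus maltose was −2.04, and the latter was not called. The difference between them, aspen minus wheat straw, was 4.67 with a standard error of 0.83 (limma, adjusted p = 0.00261). Its levels were 7.54, 6.58 and 7.11 on maltose, 4.98 and 6.49 on cellulose, 5.02 and 5.05 on wheat straw, 8.32, 5.92 and 4.66 on pine, and 10.09, 9.28 and 9.74 on aspen. Every aspen library lay above every library of the other substrates. No substrate had 4 or more libraries, so single libraries were not tested for standing apart.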

How the results depend on the processing

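Centring every library on its median over the 1052 genes moved the median of all genes from 0.105 to −0.5052 for cellulose minus maltose, from 0.1935 to −0.6681 for wheat straw, from 0.5575 to −0.4034 for pine and from 0.3021 to −0.4695 for aspen. Quantile normalisation gave −0.3844, −0.3699, −0.1786 and −0.3274. The limit of −1 then chose 236 genes after centring (all 91 members among them) and 177 after quantile normalisation (87 of the 91); adding 32 instead of 1 before the log chose 45, all of them members. After centring, 43 of the 91 members were lower on all 3 plant materials, 2 lower on both woods, 14 higher on at least 1 and 3 in both directions; against maltose, 3 members were called higher and 56 lower for wheat straw, with 10 called higher for pine and 12 for aspen. After quantile normalisation, 40 were lower on all 3, 3 lower on wheat straw only, 16 higher and 3 in both directions, with 5, 11 and 12 called higher. With 32 added, 2 were lower on wheat straw only, 32 within 1 on all 3, and 11 called higher on aspen than on wheat straw. Among the 67 members with a mean level of at least 5, 3 were lower on wheat straw only and 9 within 1. With the plant libraries alone in the fit, higher and lower calls numbered 19 and 13 for pine minus wheat straw, 15 and 10 for aspen minus wheat straw and 16 and 11 for pine minus aspen. The causes were not tested. No paired analysis was possible because the recovered libraries carry no replicate number of the labels.

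Leaving out 1 library at a time, over the genes solved there, the limit chose 78 to 115 genes. The classes held 20 to 27 members (lower on all 3), 1 to 7 (both woods), 4 to 6 (wheat straw only), 10 to 16 (1 wood), 10 to 15 (within 1), 19 to 28 (higher) and 1 to 3 (both directions). Members called higher and lower numbered 5 to 8 and 22 to 33 for wheat straw minus maltose, 11 to 18 and 25 to 38 for pine minus maltose, 12 to 20 and 22 to 35 for aspen minus maltose, 11 to 19 and 6 to 15 for pine minus wheat straw, 11 to 18 and 2 to 10 for aspen minus wheat straw, and 9 to 16 and 7 to 12 for pine minus aspen. With all libraries kept, the same solved genes gave 78 to 91 genes for the limit. They gave 20 to 26 members lower on all 3 and 2 to 8 lower calls for aspen minus wheat straw. These low ends reflect which genes were solved, but some others fell with the library left out. Over the same genes, leaving out wheat straw library 1 took pine minus wheat straw from 12 to 6 lower calls and aspen minus wheat straw from 17 to 11 higher calls, and leaving out pine library 2 took pine minus aspen from 11 to 7 lower calls. The class lower on both woods went from 2 to 1 without maltose library 1 and from 4 to 7 without wheat straw library 2, and that of both directions from 1 to 3 without wheat straw library 1 and to 2 without pine library 1. Of 454 such values of named genes in 24 comparisons, 453 kept direction and call, favoured by the choice of genes, but not size. With 32 added, gene 1272555 went from −4.73 to −2.40 for wheat straw minus maltose and −6.48 to −2.57 for aspen minus maltose. The 1 lost call was that of gene 302323, pine minus wheat straw without wheat straw library 2 (−1.83).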
